A study of Mus musculus with 24 samples.

Results

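Peaks of N6-methyladenosine (m6A) in intronless protein-coding genes were described in 12 mouse kidneys. A gene was called intronless when every one of its protein-coding transcripts in the GENCODE M21 annotation (GRCm38) has a single exon, and a peak was a member when it overlapped such a gene on the gene's strand by at least 1 bp. Of 21951 protein-coding genes, 1362 (6.20%) met the rule, and 216 of these (15.9%) had a peak in at least 1 kidney. They held 1229 of the 91013 peaks in the 12 lists (1.35%). All 1229 reached into the single coding exon, and 40 of them, in 9 genes, also overlapped an exon of a multi-exon gene.

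The kidneys came from male C57BL/6 mice aged 8 weeks, with 4 mice in each of 3 groups. Control mice received only vehicle. Mice of the injury group (IG) received vehicle daily for 14 days and then cisplatin, a platinum drug that injures the kidney tubules, intravenously at 20 mg/kg. Mice of the treatment group (TG) received berberine, a plant alkaloid, at 20 mg/kg per day for those 14 days and then the same dose of cisplatin. All kidneys were taken 72 h after the last injection, as whole tissue with all its cell types. IG was compared with controls (IvC), TG with IG (TvI) and TG with controls (TvC), and these comparisons share groups. MeRIP-seq enriches RNA fragments with an antibody against m6A, and the deposited lists give for each peak its position, strand and a score, which is -10 times the log10 of the p-value. The lists held 8531 to 9579 peaks per control kidney, 6745 to 8357 per IG kidney and 5901 to 6753 per TG kidney, and the read depth behind them is unknown.

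m6A is written on mRNA mainly by the METTL3 and METTL14 complex at a short consensus, spelled out as A or G, A or G, A, C and then A, C or T (RRACH). In most mRNAs it gathers in long internal exons and near the stop codon, because protein complexes left at exon junctions by splicing keep the methyltransferase away from nearby RNA. Transcripts of intronless genes carry no such junctions. Many of these genes encode short-lived regulators, such as the immediate early factors of the AP-1 family, and others are retrocopies that arose from spliced mRNA of a parent gene.

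The following coding sequences lay inside the peaks of genes whose listing differed most between the groups and of the genes with the highest scores. Each is a stretch of 120 bases of coding exon that lies within the peak of every kidney with one. It holds the most RRACH and, among stretches with equal counts, the most of its form GGACT. Sequences are read 5′ to 3′ on the gene's strand from the GRCm38 RefSeq genome, with RRACH in capitals. Genes listed in all 4 control kidneys and in no IG or TG kidney come first, of which Fzd8 is not shown.
Cited4, chr4:120667117-120667236 (+): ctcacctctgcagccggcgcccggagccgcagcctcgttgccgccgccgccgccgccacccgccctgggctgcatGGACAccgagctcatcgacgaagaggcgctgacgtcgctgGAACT
Ier2, chr8:84662319-84662438 (-): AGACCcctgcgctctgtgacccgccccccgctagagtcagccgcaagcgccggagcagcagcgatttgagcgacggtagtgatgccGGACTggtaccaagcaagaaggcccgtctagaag
Mars2, chr1:55238878-55238997 (+): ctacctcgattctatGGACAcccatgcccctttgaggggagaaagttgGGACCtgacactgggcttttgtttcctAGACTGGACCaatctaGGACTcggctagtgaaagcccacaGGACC
Mcts2, chr2:152687402-152687521 (+): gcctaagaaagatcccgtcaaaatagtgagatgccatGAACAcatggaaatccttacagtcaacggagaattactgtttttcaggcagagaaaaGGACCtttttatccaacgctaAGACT
Nap1l3, chrX:122396191-122396310 (-): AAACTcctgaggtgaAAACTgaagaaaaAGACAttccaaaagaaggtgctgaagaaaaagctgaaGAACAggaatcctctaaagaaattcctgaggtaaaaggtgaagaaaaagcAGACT
Tas2r119, chr15:32177391-32177510 (+): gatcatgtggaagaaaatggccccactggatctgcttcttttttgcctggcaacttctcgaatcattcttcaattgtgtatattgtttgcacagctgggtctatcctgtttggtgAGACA
The next genes were listed in every IG and TG kidney and in no control kidney.
Ccdc96, chr5:36485905-36486024 (+): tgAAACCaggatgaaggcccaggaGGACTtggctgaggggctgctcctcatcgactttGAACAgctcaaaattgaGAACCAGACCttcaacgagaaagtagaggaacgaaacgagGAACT
Foxs1, chr2:152932626-152932745 (-): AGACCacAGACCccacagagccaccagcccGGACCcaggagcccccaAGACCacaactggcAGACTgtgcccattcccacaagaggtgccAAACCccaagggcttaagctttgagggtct
Nap1l2, chrX:103185949-103186068 (-): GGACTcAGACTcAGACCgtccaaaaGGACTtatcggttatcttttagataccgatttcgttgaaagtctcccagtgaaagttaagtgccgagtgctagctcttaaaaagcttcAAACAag
Ccdc184 was listed in every TG kidney and in no other.
Ccdc184, chr15:98168634-98168753 (+): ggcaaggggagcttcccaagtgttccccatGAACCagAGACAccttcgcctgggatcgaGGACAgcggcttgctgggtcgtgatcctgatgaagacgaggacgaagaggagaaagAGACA
The last 5 had the highest median scores of the genes listed in all 12 kidneys with a coding sequence of at least 480 bases. Gm20594, with a coding sequence of 111 bases, is not shown.
Zrsr1, chr11:22974186-22974305 (+): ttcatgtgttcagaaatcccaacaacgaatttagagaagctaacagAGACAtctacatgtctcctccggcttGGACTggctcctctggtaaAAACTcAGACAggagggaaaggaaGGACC
Jun, chr4:95050290-95050409 (-): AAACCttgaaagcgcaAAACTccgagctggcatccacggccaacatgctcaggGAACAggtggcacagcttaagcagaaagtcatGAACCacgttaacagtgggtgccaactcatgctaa
Utp3, chr5:88555726-88555845 (+): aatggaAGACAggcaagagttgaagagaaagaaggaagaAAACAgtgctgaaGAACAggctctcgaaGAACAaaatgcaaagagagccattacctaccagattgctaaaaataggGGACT
Pou3f3, chr1:42697571-42697690 (+): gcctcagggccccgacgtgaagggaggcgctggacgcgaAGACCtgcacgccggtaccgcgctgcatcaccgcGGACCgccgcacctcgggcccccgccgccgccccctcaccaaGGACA
Jrkl, chr9:13245046-13245165 (-): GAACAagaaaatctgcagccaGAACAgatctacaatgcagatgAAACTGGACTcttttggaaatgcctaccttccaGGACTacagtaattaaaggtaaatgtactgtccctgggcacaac
These 15 stretches were picked for the motif and hold 1 to 6 copies of it, where the median of 9282 coding stretches of the same length from all intronless genes was 1. RRACH was present in 75.6% of those stretches on the gene's strand and in 73.9% on the opposite strand. GGACT, the form of RRACH most often methylated, was present in 7 of the 15, which were picked for it where RRACH counts were equal. It was present in 11.4% of all stretches (9.47% on the opposite strand), which were not picked, so these shares cannot be compared. The bitter taste receptor gene Tas2r119 had 1 RRACH in its stretch, on the gene's strand, and 3 on the opposite strand.

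Which intronless genes carried a peak was first described by length and kind. The 216 genes with a peak had a median exon of 2368 bp (quartiles 1451 and 3554 bp), against 1007 bp (737 and 1684 bp) for the 1146 without. Of genes with an exon above 3000 bp, 44.4% (76 of 171) had a peak, against 32.1% (53 of 165) of those from 2000 to 3000 bp and 13.3% (57 of 429) of those from 1000 to 2000 bp. The lowest share was not in the shortest genes, with 3.21% (14 of 436) from 500 to 1000 bp and 9.94% (16 of 161) up to 500 bp. RRACH density differed little between the sets, with a median of 13.6 per kb of exon with a peak and 13.4 per kb without, and GC content was 52.9% and 48.4%. Among multi-exon genes, 36.3% (7477 of 20589) had a peak.

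The share of genes with a peak varied by family, also among regulators. Of 9 immediate early and AP-1 factors 8 had a peak in some kidney, as did both C/EBP factors, 5 of 13 forkhead factors and 3 of 6 frizzled receptors for Wnt, but 2 of 17 POU, bHLH and other lineage factors and 7 of 51 other G-protein-coupled receptors outside the senses. Peaks were also listed for 3 of 8 heat shock proteins and DNAJ co-chaperones, 4 of 9 kelch, BTB and KCTD adaptors of ubiquitin ligases, 3 of 7 RING, F-box, SOCS and deubiquitinase proteins and 3 of 5 glycosyltransferases and sulfotransferases. Families were matched by patterns of gene symbols, so the counts do not cover every member. The intronless Btbd35f genes are left out, as are Galnt4 and Rnf113a2, which were listed in 11 and 8 kidneys. Only Tas2r119 had a peak among 214 olfactory and taste receptors, and 8 of 69 core and linker histones and 1 of 18 Toll-like receptors and interferons had one. No peak was listed for the 7 genes with a ribosomal protein symbol (Rpl or Rps). Of copies without such a symbol, Gm2000, whose transcript is 99.7% identical to Rpl35 over the aligned part, was listed in 8 kidneys with scores of 92.45 to 3100, and Gm15013, 96.5% identical to Rps4x, in 1 IG kidney, and their reads could be shared with those genes. Among intronless genes that the study names, Tril, which encodes an accessory protein of Toll-like receptors, was listed in 5 kidneys, while Kcnf1 and Bhlhe22 overlapped no peak on either strand.

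The number of intronless-gene peaks was highest in control kidneys. It was 122, 112, 132 and 130 in the 4 controls, 101, 108, 111 and 78 in IG and 87, 74, 72 and 102 in TG, so that no IG or TG kidney reached the lowest control. The means were 124 ± 9.09 (SD, n = 4), 99.5 ± 14.9 and 83.8 ± 13.9. The difference was -24.5 in IvC and -40.25 in TvC (two-sided exact permutation test, p = 0.0286 for each, the smallest that 4 kidneys against 4 allow), and -15.75 in TvI (p = 0.2). After Benjamini-Hochberg adjustment over 15 tests (5 measures in 3 comparisons) the exact permutation p was 0.0857 in IvC and TvC and 0.429 in TvI, so none passed 0.05. The genes with a peak numbered 121.75 ± 8.26 in controls, 97.75 ± 14.9 in IG and 83 ± 14.02 in TG (n = 4), with the same exact permutation p of 0.0286 in IvC and TvC. In whole kidney, fewer cells that express a gene, less of its RNA per cell and less methylation cannot be told apart from such lists.

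**Figure D1:**
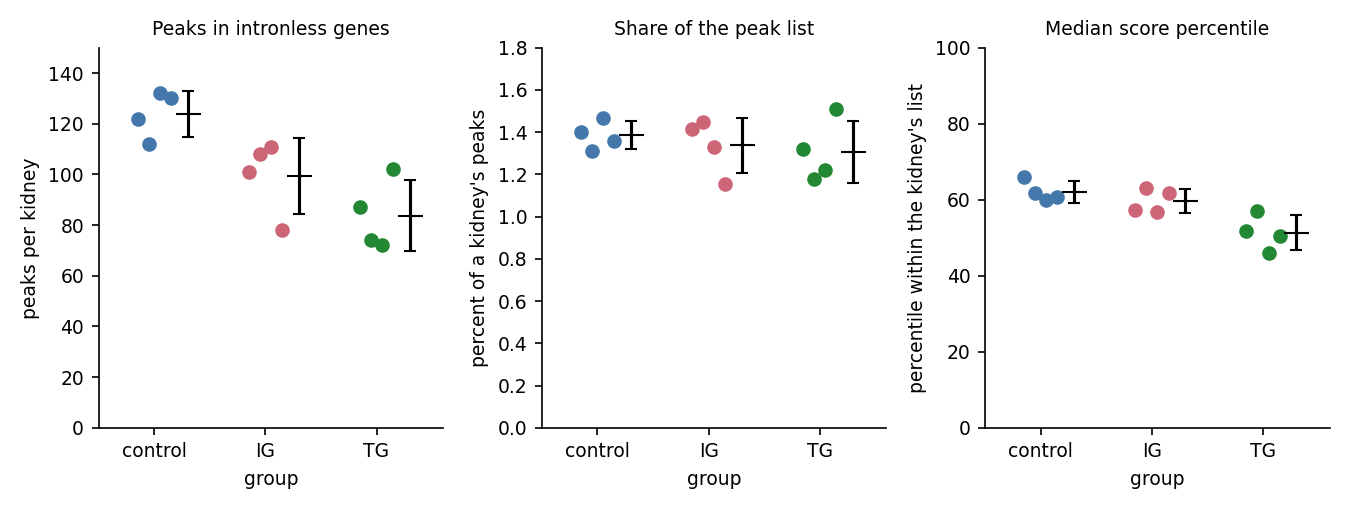
Number of intronless-gene peaks per kidney, their share of the kidney's list in percent and their median score percentile within the list, for control, IG and TG. Points are kidneys and black bars are means with SD (n = 4). Peak numbers average 124 in controls, 99.5 in IG and 83.8 in TG, the shares lie between 1.16% and 1.51% over the 12 kidneys, and the TG percentiles lie below every control.

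The whole lists were shorter in IG and TG as well. Intronless-gene peaks made up 1.38 ± 0.0665% of a control list, 1.34 ± 0.131% of an IG list and 1.31 ± 0.148% of a TG list (n = 4), and these shares overlapped (two-sided exact permutation test, p = 0.6 in IvC, 0.771 in TvI and 0.4 in TvC). Among the 5901 highest-scoring peaks of each kidney, however, the number in intronless genes differed by -12 in IvC (exact permutation p = 0.0571) and -17.75 in TvC (p = 0.0286, adjusted p = 0.107).

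Control kidneys shared more of their intronless loci than treated kidneys did. Peaks that overlapped between kidneys were joined into 223 loci, of which 24 (10.8%) were listed in all 12 kidneys and 35 (15.7%) in a single kidney, against 14.4% and 23.1% of the 16815 loci of the series. A pair of control kidneys had 67.0% of its intronless loci in common on average (6 pairs, 65.8 to 69.0%), where all loci gave 60.9%. IG pairs shared 50.6% (46.5 to 55.2%) and TG pairs 49.1% (45 to 55.7%), where all loci gave 54.7% and 55.6%. The pairs of a group share kidneys, and no test was made.

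Peaks of intronless genes were wide. Within a kidney their median width lay between 1504 and 1809 bp, against 302 to 392.5 bp for peaks in exons of multi-exon genes. The mean difference was 1325 ± 104 bp (SD over 12 kidneys), in the same direction in 12 of 12 kidneys (two-sided exact test that flips the signs of the 12 differences, p = 0.000488, the lowest possible for 12 kidneys, adjusted p = 0.000586 over 6 tests). The widest members lay in Klhdc7a, a kelch domain gene, with 5598 to 5854 bp, and the narrowest member had 33 bp, in Gm10600. Widths per group overlapped, with medians of 1713 ± 70.8 bp in controls, 1635.1 ± 135 bp in IG and 1639 ± 93.7 bp in TG (n = 4, exact permutation p of at least 0.257 in all comparisons).

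Many peaks of multi-exon genes were whole exons. Of their peaks 66.4 ± 1.24% (n = 12 kidneys) began and ended exactly at the ends of an annotated exon, against 9.72 ± 2.40% of intronless-gene peaks (lower in 12 of 12 kidneys, two-sided exact sign-flip p = 0.000488). With RefSeq exons added, the shares were 69.8% and 18.04%. A peak listed as a whole exon can be no wider than that exon, so the width tests also compare exon structure. They do not measure how far methylation extends. Among peaks of at least 1000 bp alone, the medians were 1947 bp in intronless and 1587 bp in multi-exon genes, still with 12 of 12 kidneys in that direction (exact sign-flip p = 0.000488).

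**Figure D2:**
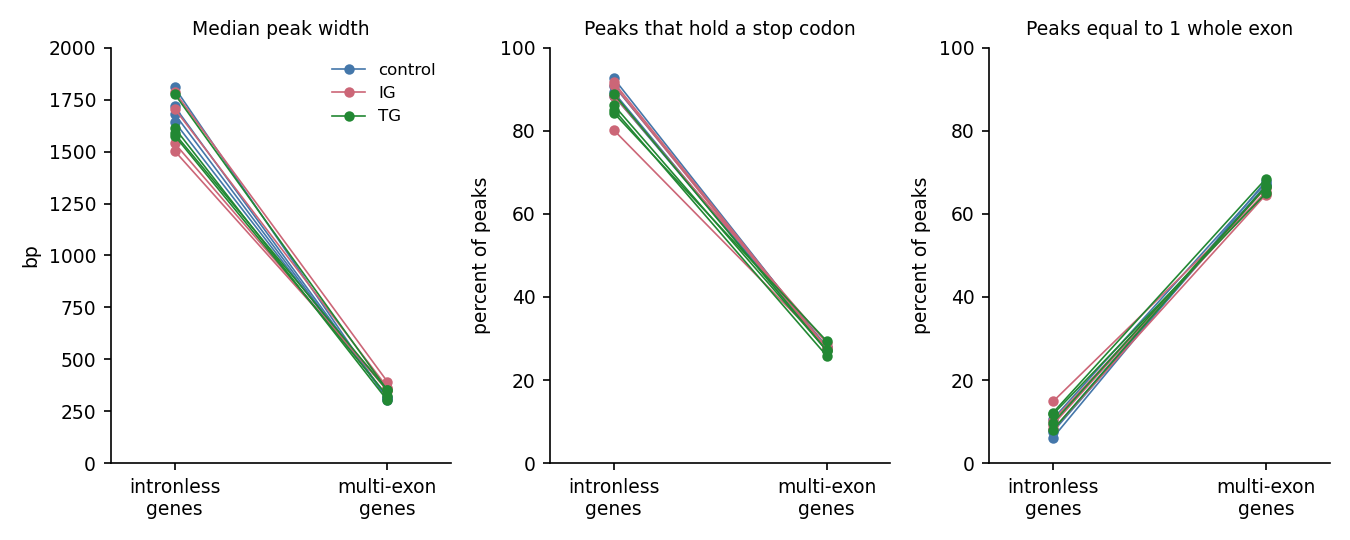
Median peak width in bp, percent of peaks that hold an annotated stop codon and percent of peaks equal to a whole annotated exon, each for intronless and multi-exon genes. A line joins the values of a kidney, coloured by group. In all 12 kidneys the peaks of intronless genes were wider, held a stop codon more often (88.1% against 27.7% on average) and were whole exons less often.

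The wide peaks covered most of the coding sequence. In intronless genes with a peak, 87.7 ± 3.45% of the coding bases lay in peaks (n = 12 kidneys), against 32.5 ± 1.57% in multi-exon genes with a peak, and 69.7 ± 3.92% of the genes had their whole coding sequence in a peak, against 4.83%. For the 5′ UTR the covered share was 56.5 ± 5.94% against 14.1%, and for the 3′ UTR 42.4 ± 2.30% against 19.9%. Each of these differences had the same direction in 12 of 12 kidneys (two-sided exact sign-flip test, p = 0.000488 for each). Within the intronless genes the coding sequence was covered 45.3 percentage points more than the 3′ UTR (exact sign-flip p = 0.000488, 12 of 12 kidneys).

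The 2 ends of the peaks were placed differently. The peak began within 50 bases of the annotated 5′ end of the transcript in 52.2 ± 3.95% of cases, and ended within 50 bases of the 3′ end in 33.2 ± 4.00% (difference 19.1 percentage points, 12 of 12 kidneys, two-sided exact sign-flip p = 0.000488). Listed peaks can stop where an annotated exon stops, so these shares may not mark the ends of the enrichment. A stop codon lay inside 88.1 ± 3.59% of the peaks, against 27.7 ± 0.908% in multi-exon genes (exact sign-flip p = 0.000488), and among peaks of at least 1000 bp these shares were 92.6% and 66.5%. Most peaks of multi-exon genes are single whole exons, so this test too compares exon structure and not only the place of methylation. Peaks ran past the stop codon by a median of 487 ± 36.0 bases.

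**Figure D3:**
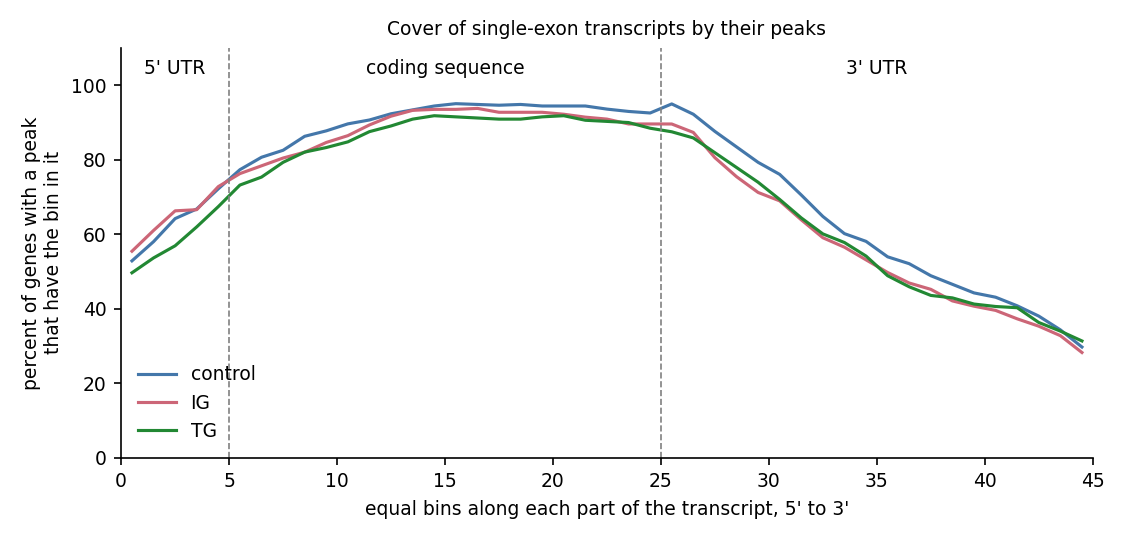
Percent of intronless genes with a peak in which each bin of the transcript lies in the peak, for control, IG and TG. The x axis holds 5 bins of the 5′ UTR, 20 of the coding sequence and 20 of the 3′ UTR, and genes are pooled over the 4 kidneys of a group. In controls the curve rises from 52.8% at the 5′ end to 95% in the coding sequence and falls to 29.7% at the 3′ end, and the IG and TG curves have the same shape.

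The density of the motif differed by strand and by gene class. Peaks of intronless genes held 14.6 ± 0.451 RRACH per kb on the gene's strand and 11.5 ± 0.207 on the opposite strand (higher in 12 of 12 kidneys, two-sided exact sign-flip p = 0.000488). Peaks of multi-exon genes held more, 16.8 ± 0.208 per kb (12 of 12 kidneys, exact sign-flip p = 0.000488). GGACT had the other order. It occurred 1.44 ± 0.0355 times per kb in intronless-gene peaks, 0.967 times on their opposite strand and 1.13 ± 0.0200 times in peaks of multi-exon genes (higher in 12 of 12 kidneys against both, exact sign-flip p = 0.000488, motif compared after the values of RRACH had been seen). Since the peaks are wide, these densities describe the whole transcript as much as the methylated sites. Many of the same genes are listed in several kidneys, so these p-values measure agreement between kidneys and not the spread between genes.

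Scores of intronless-gene peaks ran from 13.03 to 3224, with a median of 99.4. Exactly 3100 was given to 37 peaks and 39 reached it, so that the scale hardly separates the strongest peaks. Scores were therefore read as percentiles of the kidney's own list. The median percentile of intronless-gene peaks was 57.7 ± 5.80 over the 12 kidneys, against 50.02 for peaks of multi-exon genes, and was higher in 11 of 12 kidneys (two-sided exact sign-flip p = 0.00244, adjusted p = 0.00244). Among peaks of at least 1000 bp in both classes the difference was 1.64 percentiles (8 of 12 kidneys, exact sign-flip p = 0.376). In TG the members ranked lower, with median percentiles of 51.8, 57.1, 46.1 and 50.4, where the controls had 66.1, 61.7, 59.8 and 60.6 and IG had 57.4, 63.1, 56.7 and 61.8. The difference in TvC was -10.7 (two-sided exact permutation test, p = 0.0286, adjusted p = 0.0857), in TvI -8.40 (p = 0.0571) and in IvC -2.30 (p = 0.343). With only the peaks at or above the median score of all lists, the TvC difference was 0.37 (exact permutation p = 1).

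The locus of each gene was then compared between groups. A peak in 4 of 4 kidneys against 0 of 4 is the only outcome under 0.05 in Fisher's exact test (two-sided, p = 0.0286), and after Benjamini-Hochberg adjustment 0 loci of the series passed (lowest adjusted p of Fisher's exact test 0.701 in IvC, 0.604 in TvC and 1 in TvI). The loci named below are therefore described and not called changed. In IvC, 6 of 211 intronless loci (2.84%) were listed in every IG and no control kidney, where all loci of the series gave 1.35%, and 8 (3.79%) in every control and no IG kidney, where all loci gave 2.73%. In TvC, 5 of 207 (2.42%) were listed in every TG and no control kidney (all loci 1.00%), and 12 (5.80%) in every control and no TG kidney (all loci 3.73%). In TvI the counts were 1 of 181 (0.552%, all loci 0.217%) in TG and 0 of 181 in IG (all loci 0.449%). Many of these listings did not hold in shorter lists. Of 32 listings of a gene in a comparison, 19 were no longer 4 against 0 with the 5901 highest-scoring peaks of each kidney, and 25 when peaks scoring under 71.3, the median over all lists, were left out. With equal lists, 9 of 172 intronless loci in TvC (5.23%, all loci 3.87%) and 10 of 170 in IvC (5.88%, all loci 3.89%) were listed on one side only.

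**Figure D4:**
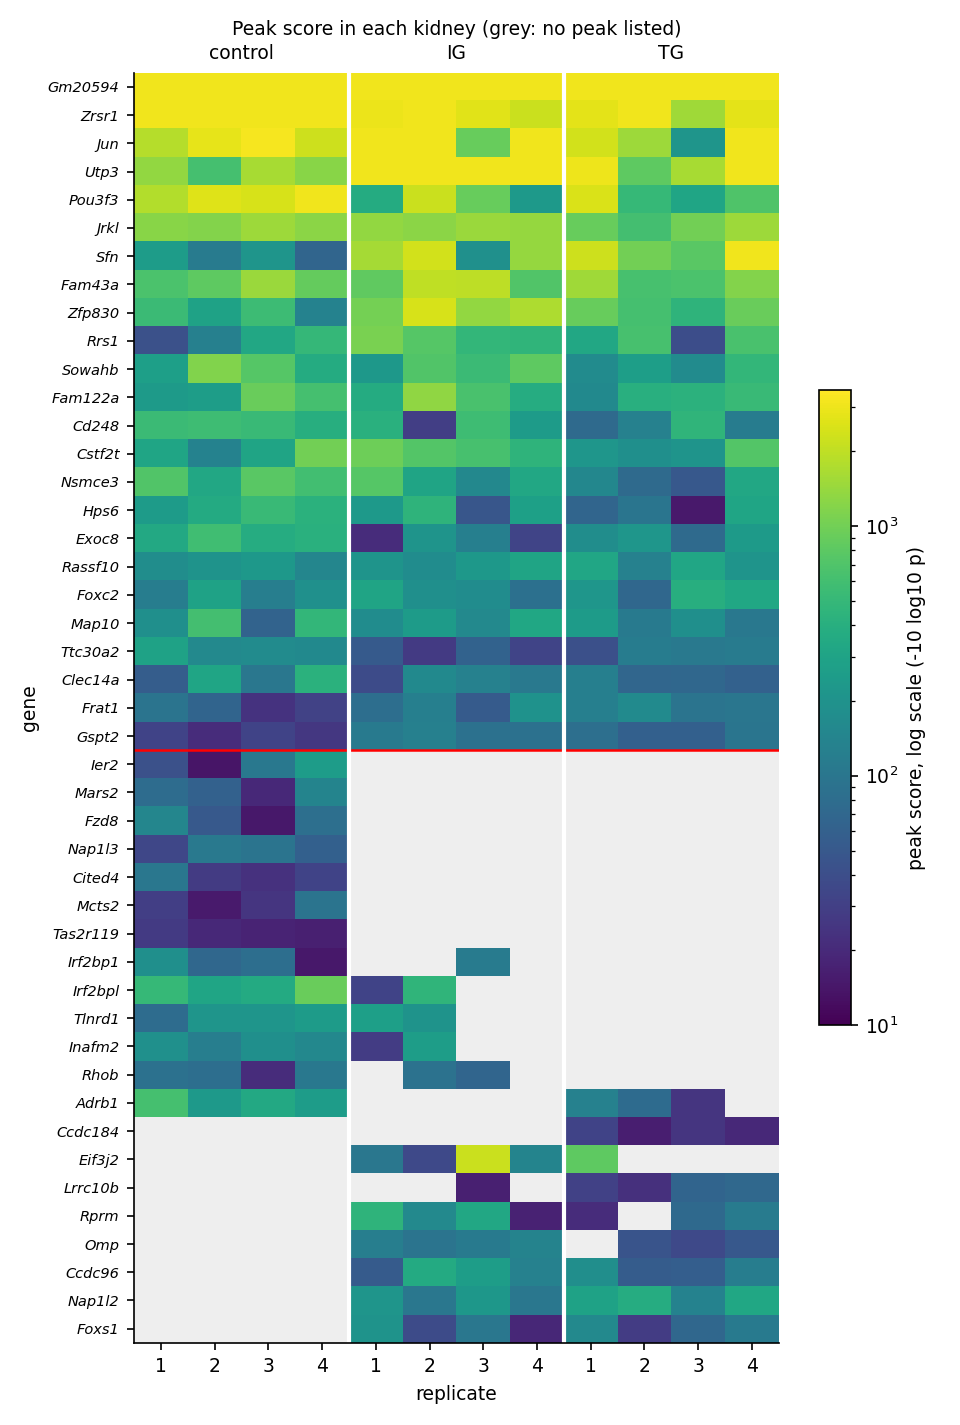
Peak score in every kidney (log colour scale, grey where no peak was listed) for the 24 genes listed in all 12 kidneys (above the red line) and for the 21 genes listed in every kidney of 1 group and none of another (below it). Columns are the 4 replicates of control, IG and TG. Of these 21, 7 genes are coloured in the controls alone, and Ccdc96, Nap1l2 and Foxs1 in every IG and TG kidney alone.

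Listed in controls alone were 7 genes of varied function, most with modest scores. The share of all loci listed in this way is not given here, so the count is not read as a trait of intronless genes. Ier2, an immediate early nuclear protein (chr8:84661331-84662852), had scores of 43.0, 14.04, 105 and 252 in the 4 controls. Mars2, the mitochondrial methionyl-tRNA synthetase (chr1:55237177-55239690), had 79.7, 62.0, 19.6 and 142. Nap1l3, of the nucleosome assembly protein family (chrX:122395119-122397065), had 35.0, 108, 94.98 and 60.9. Most of these scores lie below the members' median of 99.4, and the 3 genes were listed in 0 of the 8 kidneys given cisplatin. Fzd8, a frizzled receptor for Wnt ligands, had 148, 51.1, 14.6 and 85.5 in the controls. Cited4, a coactivator that binds CBP and p300 (chr4:120666741-120667820), had 102, 27.8, 23.1 and 32.8. The retrogene Mcts2, which lies within the H13 gene on the same strand (chr2:152687148-152687942), had 29.8, 15.2, 24.5 and 95.2. The control kidney with the highest score was not the same one in these genes. The Tas2r119 peak (chr15:32177289-32177642) spanned 255 to 354 bp at the 5′ end of a 1006 bp exon, and the Mars2 peak 2018 to 2499 bp at the 5′ end of an exon of 11294 bp. For Tas2r119 the mean score was the lowest of the 7 (20.4 ± 4.73, SD, n = 4), with 27.2, 19.7, 17.9 and 16.7.

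Other loci of all 4 controls were also listed in some treated kidneys. Adrb1, the β1-adrenergic receptor (chr19:56722474-56724298), had 629, 235, 341 and 253 in the controls, no peak in IG, and 133, 76.8 and 24.9 in the first 3 TG kidneys. The TG scores were below every control. Irf2bpl, a binding partner of the interferon regulatory factor IRF2 (chr12:86880703-86884814), had 511, 312, 361 and 922 in controls, 32.8 and 460.0 in the first 2 IG kidneys and no peak in TG. Tlnrd1, Inafm2 and Rhob, which encodes a small GTPase induced by stress, had the same listing of 4, 2 and 0 kidneys, and Irf2bp1 was listed in 4, 1 and 0. Among these, Inafm2 (chr2:118745758-118748810) had peaks of 3053 bp in all 6 kidneys, the full length of its exon.

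After cisplatin, with or without berberine, 3 genes were listed in all 8 kidneys and in no control. For this listing too the share of all loci is not given here. Nap1l2, a relative of Nap1l3 on the X chromosome that overlaps a pseudogene of the same strand (chrX:103184904-103186489), had scores of 212, 103, 223 and 103 in IG and 290.1, 379, 133 and 325 in TG. Its relative Nap1l3 was listed in the controls alone. The coiled-coil gene Ccdc96 (chr5:36484588-36486947) had 53.4, 355, 261 and 132 in IG and 181, 55.3, 57.1 and 120.2 in TG. Foxs1, a forkhead factor of pericytes and smooth muscle (chr2:152931898-152933208), had 204, 38.1, 102 and 19.4 in IG and 157, 28.1, 70.02 and 109 in TG. The IG and TG scores of all 3 genes overlapped.

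Rprm and Omp were listed in every IG kidney and in 3 TG kidneys. Rprm, or Reprimo, is induced by p53 and arrests the cell cycle (chr2:54084093-54085552), and its scores were 447, 159, 338 and 17.7 in IG and 21.1, 73.5 and 115 in the TG kidneys with a peak. Omp, the olfactory marker protein (chr7:98144007-98145219), had 124, 94.96, 112 and 137 in IG and 45.7, 36.1 and 49.7 in TG, so that every IG score exceeded every TG score. Omp lies within the gene Capn5 on the same strand, so the lists do not show which of the transcripts carried the peak. Eif3j2, a copy of a translation initiation factor subunit, had 103, 36.6, 2206 and 141 in IG and 825 in 1 TG kidney. Its transcript has a near-identical copy elsewhere in the annotation (99.4% identity), so reads could be shared between them.

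In TG, 2 further genes were listed in every kidney and in no control. Ccdc184 (chr15:98167821-98169437) was listed in all TG kidneys with scores of 32.2, 16.4, 24.8 and 19.8, all below the members' median, and in no other kidney. Lrrc10b, a leucine-rich repeat gene (chr19:10455966-10457264), had 31.4, 22.6, 66.3 and 72.3 in TG, 16.9 in 1 IG kidney and no control peak. No intronless locus was listed in every IG kidney and no TG kidney.

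The 24 loci listed in all 12 kidneys allow scores to be compared without missing peaks. The percentiles of 2 groups did not overlap for 3 higher and 5 lower loci in IvC, where all loci in 12 kidneys gave 9.72% higher (here 12.5%) and 15.9% lower (here 20.8%). In TvC, 3 were higher and 6 lower, 12.5% and 25% against 7.32% and 19.2% of all. In TvI, 0 were higher and 1 was lower, against 2.77% and 4.34%. The lower loci of IvC and TvC include Gm20594, whose scores tie at 3100 in all 12 kidneys. In IvC they also include Zrsr1, where the second IG kidney ties with the controls at 3100. With the 5901 highest-scoring peaks of each kidney, 21 intronless loci were listed in all kidneys, and the numbers without overlap were 5 in IvC, 3 in TvC and 0 in TvI (23.8%, 14.3% and 0%), against 24.7%, 25.2% and 6.97% of all 1922 such loci.

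In Utp3, Zfp830 and Gspt2 every IG percentile lay above every control. Utp3, a nucleolar protein of ribosomal RNA processing (chr5:88554483-88556083), had scores of 1365, 617, 1637 and 1244 in controls and exactly 3100 in all 4 IG kidneys. In TG it had 3004, 826, 1630.1 and 3100, which overlap both groups. Zfp830, a zinc finger protein (chr11:82764345-82767235), had 548, 292, 555 and 135 in controls, 1019, 2447, 1369 and 1710 in IG and 895, 627, 453 and 920 in TG, the only locus that was lower in TvI. Gspt2, a translation termination factor (chrX:94636212-94638482), had 32.8, 21.3, 32.3 and 25.9 in controls, 109.6, 129, 88.7 and 89.4 in IG and 84.7, 60.7, 59.8 and 97.2 in TG. All its IG and TG scores exceeded all its control scores.

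Sfn, or 14-3-3σ, a p53 target that holds cells before mitosis (chr4:133600556-133602168), was higher in TvC. Its control scores were 252, 113, 211 and 67.7. The IG kidneys had 1604, 2345, 188 and 1379, and the third overlaps the controls. The TG kidneys had 2255, 1009, 777 and 3100, all above the controls. Frat1, an inhibitor of GSK3 in Wnt signalling (chr19:41830428-41831832), also had higher percentiles in TvC, with scores of 95.9, 66.6, 23.7 and 31.8 in controls and 125, 166, 95.8 and 99.8 in TG. The IG scores of 82.7, 125, 53.3 and 196.5 overlapped both groups. Its lowest TG score lay just below its highest control score.

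Several genes had their highest scores in controls. Pou3f3, a POU factor required for the loop of Henle (chr1:42697146-42700209), had 1770.3, 2608, 2452 and 3100 in controls and 369, 2181, 891 and 238 in IG. In TG it had 2488, 511, 314 and 699, so that 1 kidney of each treated group lies within the range of the controls. Its percentiles did not overlap in IvC. Exoc8, a subunit of the exocyst (chr8:124894264-124897705), had 340.1, 583, 380.3 and 412 in controls, 21.1, 207, 127 and 33.4 in IG and 178, 219, 75.1 and 245 in TG, below every control in both. Ttc30a2, a protein of ciliary transport (chr2:75976155-75977732), had 295, 156, 168 and 163 in controls, 52.3, 26.8, 63.0 and 33.1 in IG and 41.5, 116, 106 and 114 in TG. A near-identical copy of its transcript exists (95.6% identity). Nsmce3, a subunit of the SMC5 and SMC6 complex (chr7:64871557-64873040), was lower in TvC, with 716, 336, 788 and 597 in controls and 152, 75.6, 50.1 and 338 in TG, where the fourth TG score was just above the lowest control score. Its IG scores of 751, 307, 155 and 334 overlapped both groups. Nsmce3 lies within Fam189a1 on the same strand, and Pou3f3 and Foxc2 also overlap an annotated gene of their strand.

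**Figure D5:**
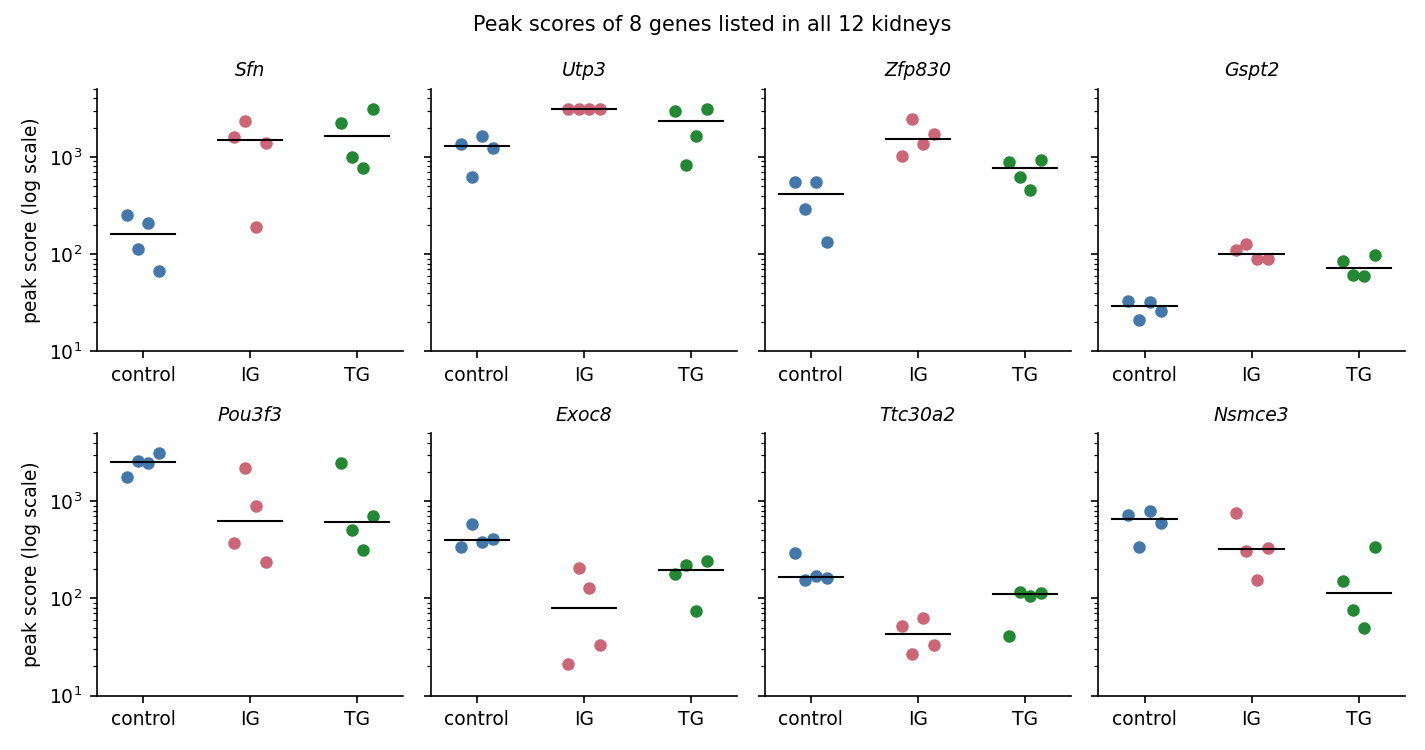
Peak scores (log scale) in every kidney of 8 genes listed in all 12 kidneys, by group. The genes were chosen from those whose score percentiles did not overlap in IvC or TvC. Points are kidneys and bars are medians. Sfn, Utp3, Zfp830 and Gspt2 (upper row) have their lowest medians in controls, and Pou3f3, Exoc8, Ttc30a2 and Nsmce3 (lower row) their highest.

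The percentile of a peak at 3100 depends on how many other peaks of its list reach that score. Gm20594, a predicted gene with the same peak of 334 bp in every kidney (chr6:79818031-79818364), had a score of 3100 in all 12 kidneys and still counts among the lower loci in IvC and TvC. Zrsr1, a splicing factor retrogene that lies opposite the gene Commd1 (chr11:22972005-22975121), had 3100 in all 4 controls, 2952, 3100, 2695 and 2213 in IG and 2747, 3067, 1509.8 and 2723 in TG. The second IG kidney reached the same score as the controls.

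The scores of the other genes with high scores in all kidneys overlapped between the groups. Jun, a subunit of the AP-1 transcription factor (chr4:95049034-95052222), had 1807, 2793, 3224 and 2260.0 in controls and 2327, 1492, 210 and 3068 in TG. In IG it had 3100 in 3 kidneys and 892 in the third replicate. Jrkl, of the Jerky family of DNA-binding proteins, had 1169 to 1490.4 in controls, 1261 to 1435 in IG and 609 to 1488 in TG. Its percentiles were lower in TvC without overlap, at 90.2 to 95.5 in TG and 95.6 to 97.0 in controls. Fam43a had 667 to 1446, 718 to 1983 and 635 to 1503, and Rrs1, a ribosome assembly factor, 42.4 to 499, 460 to 1071 and 39.5 to 645.

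The remaining families were listed less evenly. Jund, a second Jun gene, was listed in 4 controls with 3100, 1617, 3100 and 2149, in 3 IG kidneys with 246, 1327 and 162 and in 3 TG kidneys with 1093, 203 and 32.6, all treated scores below every control. Cebpb, a factor of the acute phase response, was listed in 11 kidneys and Cebpd in 7, of which 4 were controls. Foxc1 was listed in 10 kidneys and Foxc2 in all 12. The stress-inducible chaperone gene Hspa1b was listed in 4 control, 1 IG and 3 TG kidneys and its neighbour Hspa1a in 3, 1 and 1, but their transcripts are 99.2% identical over the aligned part, so their peaks cannot be kept apart. Of the 216 intronless genes with a peak, 167 were listed in some control kidney, 158 in some IG kidney and 138 in some TG kidney. Of the 8 histone genes, 7 were listed in some control kidney, 3 in IG and 1 in TG, but 5 of the 8 were listed in a single kidney, Hist1h2ai in IG only and Hist1h2ao in 1 control and 3 IG kidneys. Hist1h2ao and Hist1h2ad have 10 near-identical copies each. All 4 protocadherin genes with a peak were listed in TG, 1 of them in IG and 0 in controls, with scores of 14.7 to 48.0 for Pcdhb17, Pcdhb18 and Pcdhb21, which lie within longer genes of the same strand.

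The receptor, ligase adaptor and enzyme genes named here varied in the number of kidneys that listed them. Lpar6, a receptor for lysophosphatidic acid, was listed in 4 control, 3 IG and 1 TG kidneys with scores of 17.97 to 139, and Adra2b, an α2-adrenergic receptor, in 0, 1 and 2. The frizzled gene Fzd1 was listed in 1, 2 and 1 kidneys and Fzd7 in 1, 2 and 0. The adaptor gene Kbtbd7 was listed in 4, 4 and 2, Kctd11 in 3, 1 and 0 and Klhdc7a in 4, 1 and 1, and the deubiquitinase gene Otud1 in 4, 2 and 2. The fucosyltransferase gene Fut4 was listed in 3 IG and 2 TG kidneys and in no control, with scores of 13.5 to 58.6, while B3galt6, a galactosyltransferase of proteoglycan synthesis, was listed in 2 controls alone. Tlr12, a Toll-like receptor, was listed in 3, 1 and 0 kidneys with scores of 16.6 to 28.5, and Tril in 3, 0 and 2. The SOX factor gene Sox4 was listed in 2 controls and 1 IG kidney, Sox11 in 1 IG kidney, and the potassium channel gene Kcna5 in 2 TG kidneys.

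Fem1a, an adaptor of a ubiquitin ligase with a wide peak of 3478 to 4316 bp, was listed in 4 control, 2 IG and 1 TG kidneys with scores of 42.5 to 629. In 7 genes the peaks formed 2 separate loci, among them Adrb1, Gm10600, Gm21093, Gm10184 and Amd2. The last 4 have near-identical copies (99.5 to 100% identity), as do 36 of the 216 genes with a peak in all, which hold 193 of the 1229 peaks.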

How the data were processed

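MeRIP-seq libraries of 12 kidneys were grouped as labelled. Reads were trimmed (cutadapt 1.9.3) and aligned to mm10 (HISAT2 2.0.4) by the authors, who ran MACS per kidney and retained peaks on mRNA exons. The deposited score is -10 log10 of the p-value. Version and threshold of MACS are not given in the sources used here. The lists hold no counts, so depth is unknown and 4 kidneys per group limit the precision. The 12 input libraries were not analysed here.

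Peaks were matched by strand to GENCODE M21 genes. Joined peaks formed loci. The members and gene groups were chosen with earlier results of these data known. Groups were compared with two-sided exact permutation tests, gene classes within kidneys with exact sign-flip tests and loci with Fisher's exact test, each with Benjamini-Hochberg adjustment. If litters or cages were shared, p-values measure only the spread between these mice. Kidneys list many of the same genes, so sign-flip p-values describe agreement between kidneys and not the spread between genes. Named were loci listed in all kidneys of a group and none of another (at most 8 per comparison and direction, by score), the 10 highest-scoring loci of all kidneys, up to 3 genes per gene group, the 5 genes with the most loci and the 5 widest, and genes that the study names. Genes with non-overlapping percentiles were named after their values were seen. Near-identical transcripts (at least 95% identity over at least 50% of the length) came from BLAST+ 2.17.0. The tests were checked on simulated data. Alternatives were matching without strand, other definitions of genes and overlap, equal lists of 5901 peaks, scores of at least 71.3, joining within 100 bp, a replicate block and leaving out each kidney. Wide peaks, RefSeq exons and genes without copies were alternatives chosen after seeing the data. Python 3.11.15, numpy 2.4.6, scipy 1.17.1, pandas 2.3.3 and matplotlib 3.10.9 were used.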

Additional observations from a re-analysis of the deposited data

Results flagged for a closer look

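In groups of 4 kidneys, a kidney was singled out when its gap to the nearest other kidney took up most of the range of the group. Of 99 such groups tested, 4 were singled out, where chance alone gives about 1 in 20. The third IG kidney had a score of 892 for Jun, where the other 3 IG kidneys had 3100, and a score of 2206 for Eif3j2, where the others had 36.6 to 141. For Jun the other 3 scores tie at 3100, so any lower score would have been singled out. The first control kidney had a score of 102 for Cited4, where the others had 23.1 to 32.8. The fourth IG kidney, which had the fewest intronless-gene peaks of its group (78), held 15.5 RRACH per kb in them, where the others had 14.3 to 14.5.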

How the results depend on the processing

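Depth is unknown, and no comparison between groups passed after adjustment, so unadjusted exact permutation p-values are compared here. The number of intronless-gene peaks in IvC (-24.5, p = 0.0286) had an exact permutation p of 0.0571 when strand was ignored (-24.75), when peaks in exons of multi-exon genes were left out (-22.5, genes -22), with genes whose transcripts of any kind have 1 exon (-20.25, genes -20.25), with equal list lengths (-12, genes -11.75) and with scores at or above the median (-20.25, genes -20.75). The share of the list in TvC was -0.30 percentage points with equal lists and -0.43 with scores at or above the median, each with an exact permutation p of 0.0286. The TvC difference in median percentile (-10.7) was -9.86 with transcripts of any kind counted, -6.52 with equal lists and 0.37, in the other direction, with scores at or above the median. Against peaks of multi-exon genes, the percentile difference among peaks of at least 1000 bp was 1.64.

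Loci listed in every kidney of a group and in none of the other numbered 14 in IvC, 1 in TvI and 17 in TvC. With equal lists TvI and TvC gave 2 and 9 (1.26% and 5.23% of intronless loci, against 0.755% and 3.87% of all loci). With scores at or above the median IvC and TvC gave 8 and 10, for which the share of all loci is not given here. With a difference of at least 3 of 4 kidneys the counts were 37, 10 and 48 (17.5%, 5.52% and 23.2% of intronless loci, against 12.8%, 4.49% and 14.8% of all loci). Loci in 12 kidneys without overlap of percentiles (8, 1 and 9 in IvC, TvI and TvC) numbered 5, 0 and 3 with equal lists, and 3 in TvC with scores at or above the median.

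Same-numbered kidneys did not deviate together (correlations -0.02 to 0.05, against -0.06 to 0.06 for kidneys of different number), so they share only a number. With the replicate block the differences were -24.5 (IvC) and -40.25 (TvC) for peaks, -24 and -38.75 for genes and -10.7 for the TvC percentile, with an exact sign-flip p of 0.125, the smallest that 4 pairs allow, and the counts of loci did not move.

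When each kidney was left out in turn, the number of peaks differed by -28.5 to -17.3 in IvC and -46.3 to -36.3 in TvC (exact permutation p of 0.0286 or 0.0571), genes by -27.9 to -16.75 and -45.1 to -34.75, and the median percentile by -12.6 to -8.95 in TvC, -10.3 to -6.65 in TvI and -3.43 to -0.955 in IvC, the last without the first control kidney. The exact permutation p of the TvC percentile was 0.0571 without any 1 of the controls and 0.0286 without any 1 of the TG kidneys, and that of TvI was 0.0286 without the second TG kidney and 0.0571 or 0.0857 otherwise. The share changed direction in IvC (-0.0848 to 0.0130 percentage points, the highest without the fourth IG kidney) and in TvI (-0.0975 to 0.0129, above 0 without the second IG or second TG kidney), and the TvI width ran from -41.96 to 55.4 bp, below 0 without the first IG, the third IG or the first TG kidney. In TvI, 1 to 4 loci were listed on one side only and 1 to 5 loci did not overlap in percentile. The highest of these counts came without the fourth IG and the fourth TG kidney. Shares of all loci with a kidney left out are not given here. Without genes that have a near-identical copy, every comparison between groups kept its direction apart from the TvI share (0.01) and TvI width (-32.9 bp).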
